A study of Camelus dromedarius with 4 samples.

Results

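The antioxidant defence genes described here are 34 gene symbols that encode enzymes which remove superoxide and peroxides, the thioredoxin and glutathione systems that feed them with electrons, and the regulator pair NFE2L2 and KEAP1. They were chosen by name. All 34 were listed in the authors' table of season means, which holds 18152 symbols, and 33 carried a mean for each season. HMOX1, the inducible haem oxygenase, was listed without means.

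The tissue was the supraoptic nucleus of the hypothalamus, taken from hydrated, age-matched adult male dromedary camels of the Tergui breed slaughtered in winter (replicates 2 and 3) or in summer (replicates 1 and 2). Total RNA depleted of ribosomal RNA was sequenced from 2 libraries a season. The camels of each season came from a different town in Algeria, so that season and place cannot be told apart. The study's methods count the RNA-seq samples as 2 camels a season, while the labels name no animal for a library. In its mass spectrometry of the same nucleus, the study calls winter sample W3 incorrectly isolated. Whether that sample and winter replicate 3 came from the same camel is not stated.

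Superoxide dismutases turn superoxide, a by-product of respiration and of NADPH oxidases, into hydrogen peroxide. Catalase, the glutathione peroxidases and the peroxiredoxins then reduce the peroxide to water or alcohols. Peroxiredoxins draw electrons from thioredoxin and glutathione peroxidases mostly from glutathione, and both carriers are recharged at the expense of NADPH. The transcription factor NRF2, encoded by NFE2L2, drives many of these genes and is held back by KEAP1. The magnocellular neurones of the supraoptic nucleus make vasopressin and oxytocin, and the surrounding astrocytes are a main source of glutathione for neurones in the brain.

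Most antioxidant transcripts differed little between the seasons. In the deposited means, which are counts divided by a size factor for depth and averaged over the 2 libraries of a season, 29 members reached the minimum of 10 normalized counts in at least 1 season, and 22 of them lay within 1.5-fold. The 7 members further apart, 24.1% of those with enough counts against 22.3% of all 13811 symbols that met the minimum, were SOD1, GPX8, PRDX1, PRDX2, PRDX5, TXNIP and GLRX. SOD1 and GPX8 were more than 2-fold apart, which is 6.9% of the members and compares with 7.26% of all symbols. Both had the lower mean in winter, a direction and size seen in 4.53% of all symbols. The winter mean was below the summer mean in 19 of 29 members (65.5%), against 53.8% of all symbols, and the median log2 ratio of winter over summer was -0.24 for the members and -0.04 for all symbols. These means carry no replicate error, and no test was made on them.

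**Figure D1:**
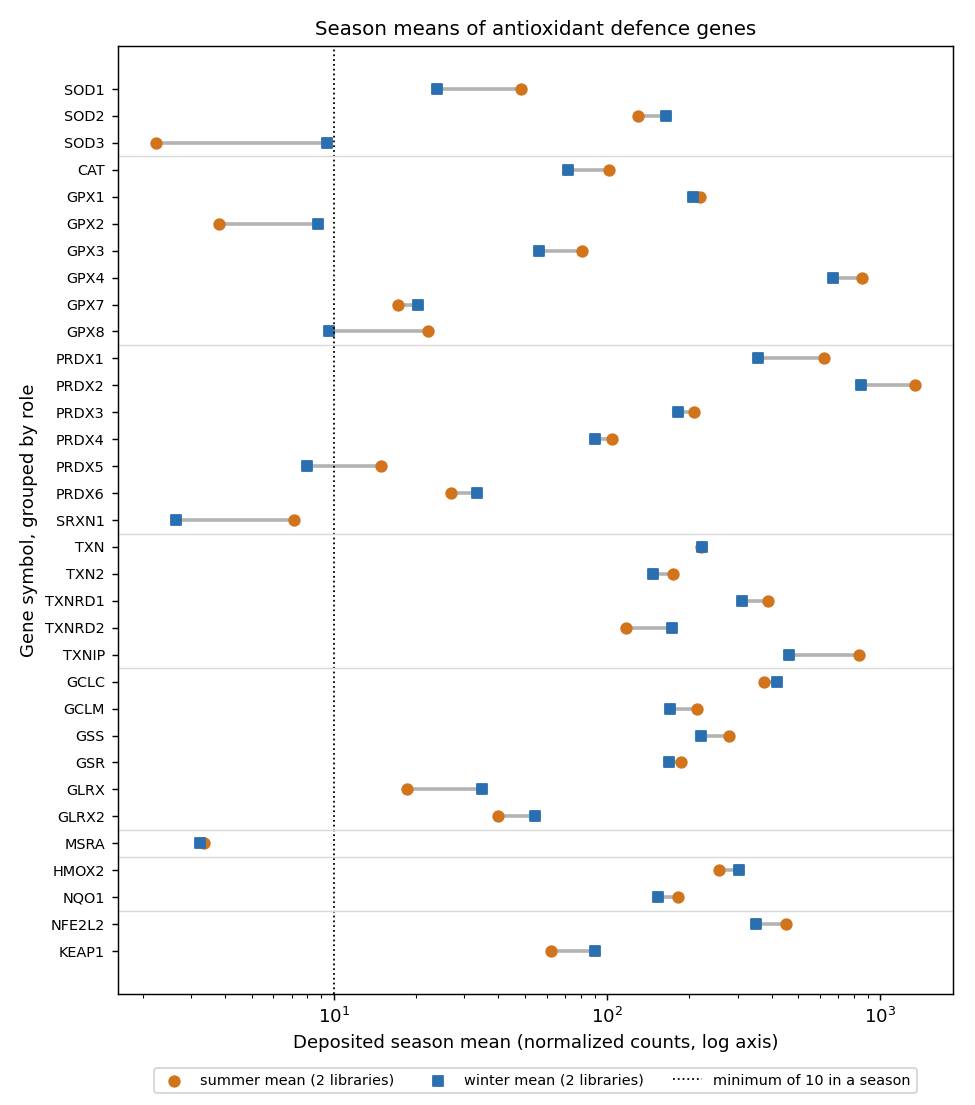
Season means of the 33 antioxidant defence genes with means, in normalized counts on a log axis, with genes grouped by role on the vertical axis. Circles are summer means and squares winter means, each over 2 libraries, and the dotted line marks the minimum of 10. SOD1 (48.5 in summer and 23.9 in winter) and GPX8 (22.0 and 9.59) are the members above the minimum whose means are more than 2-fold apart.

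**Figure D2:**
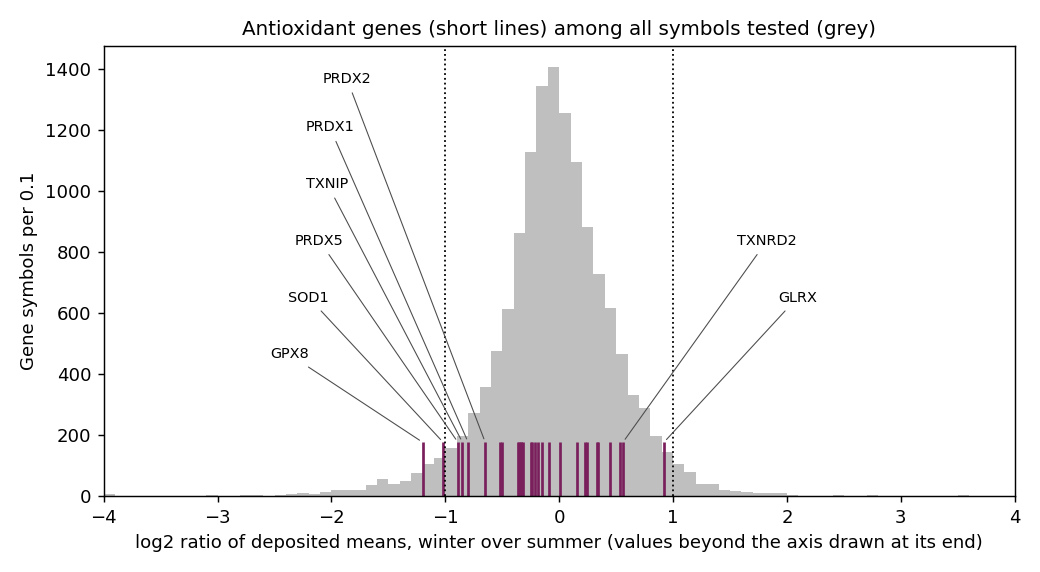
Distribution of the log2 ratio of winter over summer means (grey bars, number of symbols per 0.1). It covers those of the 13811 symbols that had a mean above 0 in both seasons. The 29 antioxidant genes are drawn as short vertical lines, and the 8 furthest from 0 are named. Dotted lines mark 2-fold, and the antioxidant genes run from -1.20 (GPX8) to 0.92 (GLRX). Of the 13811 symbols, 4.53% were more than 2-fold lower in winter.

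The spread between libraries came from the means themselves. A mean of 2 whole read counts, each divided by its size factor, can be solved for the 2 counts, and all 16053 symbols with means had a solution in whole reads in both seasons (100.0%, within the rounding of the last printed digit plus 5%). The libraries so recovered carry no replicate number and are called winter A (size factor 1.33), winter B (0.946), summer A (0.922) and summer B (0.877). The summer libraries differed from each other more than the winter ones over all 7646 symbols tested: 1394 were more than 3 times higher in summer B than in summer A and 153 the other way, against 286 higher in winter A and 132 in winter B. Summer A was more than 3 times below each of the other libraries in 630 symbols and had no read in 282, and summer B was more than 3 times above each of the others in 314. The solution was unique in both seasons for 15 members, and 11 of these had enough counts to be tested. None of the 11 passed the rule of an unadjusted p under 0.05 with more than 2-fold in edgeR's quasi-likelihood test. Of the 7646 symbols tested, 1.67% met this rule. None of the 11 had an unadjusted p under 0.05 by that test, by edgeR's exact test or by DESeq2. After Benjamini-Hochberg adjustment 0.0% of the 7646 symbols were called by the quasi-likelihood test, and the members' adjusted p was 0.982, or 0.986 for GPX7. In 5 of the 11 members (45.5%) the seasons did not overlap, both libraries of one lying above those of the other. The same held for 30.5% of the 7646 symbols. With either summer library left out, GPX8 was the only one of the 11 whose log2 ratio changed sign, and CAT (-0.14), GPX3 (-0.03) and GLRX2 (0.19) came nearer 0 without summer B.

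**Figure D3:**
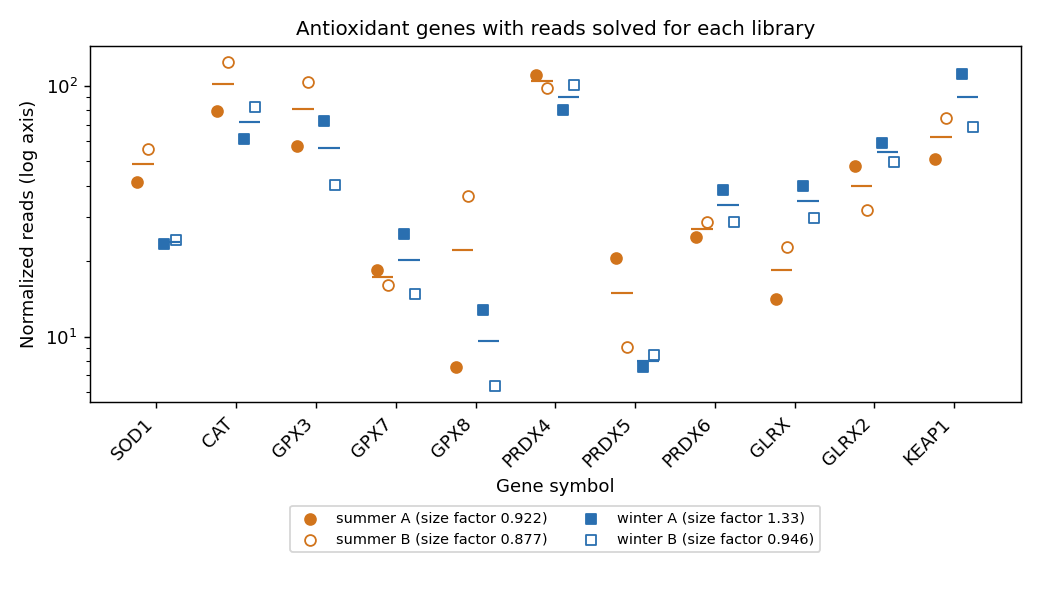
Normalized reads (log axis) of the 11 antioxidant genes with a unique solution and enough counts, in summer A and B (circles) and winter A and B (squares); short lines are season means. SOD1 and PRDX5 have both summer libraries above both winter libraries, PRDX6, GLRX and GLRX2 the reverse, and in GPX8 summer B (36.5) stands far above summer A (7.59).

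SOD1 encodes the copper and zinc superoxide dismutase of the cytosol. It held 38 reads in summer A and 49 in summer B, and 31 in winter A and 23 in winter B. After division by the size factors these were 41.2 and 55.9 normalized reads in summer and 23.4 and 24.3 in winter. The groups did not overlap, and the winter libraries were nearly equal. The log2 fold change was -1.02 ± 0.52 (SE, n = 2 a season) with an adjusted p of 0.982 in edgeR's quasi-likelihood test. Leaving out any single library kept the log2 ratio between -1.23 and -0.79. The ratio lay at the edge of 2-fold, at -0.99 on the log2 scale with a pseudocount of 1 or after centring on the median of all symbols. The mitochondrial manganese enzyme SOD2 had a mean of 129.5 in summer against 163.6 in winter, and its log2 ratio of 0.34 was in the opposite direction to that of SOD1. Its summer libraries stood at 126.9 and 132.2 normalized reads, while its winter mean allowed 2 solutions, 199.2 and 128.0 or 59.6 and 267.6, both overlapping summer. SOD3, the extracellular enzyme, was under the minimum, with 2 reads in each summer library and 18 and 5 in winter A and B.

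Catalase, encoded by CAT and located in peroxisomes, stood at 79.2 and 124.2 normalized reads in summer, against 61.1 and 82.5 in winter. The groups overlapped, and the log2 fold change was -0.51 ± 0.39 (SE). GPX3, the secreted glutathione peroxidase, stood at 57.5 and 103.7 normalized reads in summer, against 72.4 and 40.2 in winter. The groups overlapped here too, with a log2 fold change of -0.50 ± 0.47 (SE). The means of GPX1, the abundant cytosolic enzyme, were 219.2 in summer and 206.4 in winter. GPX4, which reduces lipid peroxides in membranes, had means of 855.4 and 670.2, a log2 ratio of -0.35, and none of its 15 combinations of solutions separated the seasons. GPX7 and GPX8 are peroxidases of the endoplasmic reticulum, and their season ratios had opposite signs. GPX7 stood at 18.4 and 16.0 normalized reads in summer, against 25.7 and 14.8 in winter. Its log2 fold change of 0.26 ± 0.69 (SE) turned to -0.22 without winter A.

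GPX8 had the largest ratio of the members with enough counts, with means of 22.0 (summer) and 9.59 (winter) and a log2 ratio of -1.20. Its reads were 7 in summer A, 32 in summer B, 17 in winter A and 6 in winter B. Summer A lay between the winter libraries, so that the groups overlapped and summer B alone was high. Without summer B the log2 ratio was 0.34, in the opposite direction, and with all libraries the fitted log2 fold change was -1.12 ± 0.93 (SE). In the RefSeq annotation of another dromedary assembly, the span of GPX8 overlaps that of CDC20B, which was listed without means. Among the 24 members with a unique summer solution and at least 10 normalized reads in a summer library, 14 were higher in summer B and 10 in summer A, and only GPX8 was more than 2-fold higher in summer B. GPX2 was under the minimum, with 7 and 0 reads in the summer libraries against 12 and 8 in winter.

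Of the peroxiredoxins, 5 of 6 with enough counts had the lower mean in winter, and none passed 2-fold. PRDX1 and PRDX2 are the main cytosolic members. The deposited mean of PRDX1 was 621.2 in summer against 356.6 in winter, a ratio of 1.74, and that of PRDX2 was 1339.8 against 851.2, a ratio of 1.57. At these counts several pairs of whole reads give the same mean. For PRDX1 the summer libraries were at 670.1 and 572.2 normalized reads or at 112.8 and 1129.6. Its winter libraries were at 267.9 and 445.2, at 407.5 and 305.6, or at 547.1 and 166.0. With the first of the summer pairs summer lay above winter in all 3 winter solutions, and with the other the groups overlapped. Of the 2705 symbols with summer means from 100 to 200, all of which had a unique solution, 0.44% were more than 10-fold apart between the summer libraries, a gap like that of the second summer pair. Fitted one at a time, the 6 combinations of PRDX1 gave a log2 fold change of -0.80 with an SE from 0.70 to 1.15, and PRDX2, with 192 combinations, was not fitted. None of the 7646 tested symbols had a mean over 300 across the libraries, so that for PRDX1 and other genes above it the fitted spread is an extrapolation.

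PRDX5, found in mitochondria, peroxisomes and cytosol, had 20.6 and 9.12 normalized reads in summer A and B, against 7.55 and 8.46 in winter A and B. Both summer libraries were above both winter libraries, summer B by less than 1 normalized read. The log2 fold change was -0.90 ± 0.85 (SE), and without summer A the log2 ratio was -0.19. PRDX6, which uses glutathione in place of thioredoxin, was the 1 peroxiredoxin with the higher mean in winter, at 38.5 and 28.6 normalized reads against 24.9 and 28.5 in summer. The nearest libraries were almost level, and the fitted log2 fold change was 0.34 ± 0.56 (SE). PRDX4 of the endoplasmic reticulum (104.3 in summer, 90.2 in winter) and PRDX3 of the mitochondria (207.5 and 181.5) had close means. SRXN1, which repairs overoxidised peroxiredoxins, was under the minimum with 9 and 4 reads in the summer libraries against 7 and 0 in winter.

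In the thioredoxin system the transcripts of the carrier proteins had season means within 1.5-fold. TXN had means of 220.5 in summer and 221.8 in winter, and the mitochondrial TXN2 had 174.0 and 147.7. Each had 2 winter solutions, and neither solution separated the seasons. TXNRD1 and TXNRD2, the cytosolic and the mitochondrial thioredoxin reductase, differed in the direction of their means. TXNRD1 had 386.7 in summer and 310.2 in winter, and summer lay above winter in 1 of its 3 combinations. The RefSeq span of TXNRD1 overlaps that of EID3. TXNRD2 had 117.2 and 172.2, a log2 ratio of 0.56, with summer libraries at 96.5 and 137.9 normalized reads. Its winter libraries stood at 182.6 and 161.8, above both summer libraries, or at 322.2 and 22.2, overlapping them. The second pair is 14.5-fold apart.

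TXNIP binds thioredoxin and blocks it, and is induced by glucose. Its mean was 834.1 in summer against 463.0 in winter, a ratio of 1.80 and the largest among members with means above 100. Winter was at 375.0 and 551.0 normalized reads or at 514.6 and 411.4. Summer was at 431.6 and 1236.7, at 989.0 and 679.3, or at 1546.3 and 122.0. Both summer libraries exceeded both winter libraries in 2 of the 6 combinations, those with the middle summer pair. The fitted log2 fold change was -0.85 with an SE from 0.88 to 1.24 over the combinations. Over all 17 members with several solutions that were fitted, in 63 combinations, none passed the rule, and the lowest unadjusted p was 0.17, for TXNRD2. Of the 18 members with several solutions, 8 had at least 1 combination in which the seasons did not overlap and 0 had this in every combination. The matching shares over all symbols were not computed. A gene with more combinations has more chances of such a case, so the 8 cannot be judged as many or few.

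**Figure D4:**
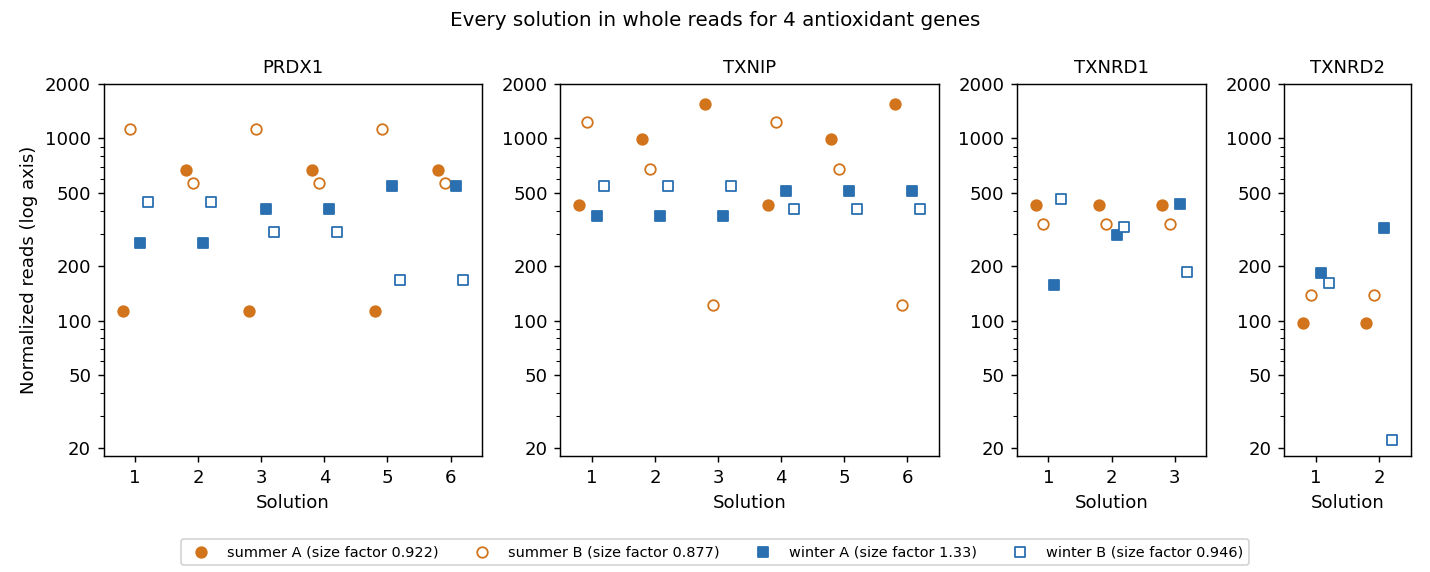
Normalized reads (log axis) in each library for every combination of whole-read solutions of PRDX1, TXNIP, TXNRD1 and TXNRD2; circles are summer A and B and squares winter A and B. Both summer libraries are above both winter libraries in 3 of 6 combinations of PRDX1, 2 of 6 of TXNIP and 1 of 3 of TXNRD1, and both winter libraries are above both summer libraries in 1 of 2 of TXNRD2.

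The genes of glutathione synthesis and recycling stayed within 1.5-fold. GCLC, the catalytic subunit of the rate-limiting ligase, had means of 376.1 in summer and 419.8 in winter, and GCLM, its modifier subunit, had 213.7 and 169.2. Glutathione synthetase GSS had 279.2 and 220.8 and glutathione reductase GSR 186.7 and 168.0. The glutaredoxins, which remove glutathione from proteins, were higher in winter in both libraries. GLRX, the cytosolic form, held 13 and 20 reads in summer A and B and 53 and 28 in winter A and B, or 14.1 and 22.8 against 40.0 and 29.6 normalized reads. Its log2 fold change was 0.93 ± 0.62 (SE) with an adjusted p of 0.982 in edgeR's quasi-likelihood test, and the log2 ratio ran from 0.61 to 1.30 with any single library left out. GLRX2, the mitochondrial form, stood at 47.7 and 31.9 normalized reads in summer, against 58.9 and 49.7 in winter, and its log2 fold change was 0.45 ± 0.46 (SE). MSRA, which reduces oxidised methionine, had 3 or 4 reads in each library, too few to compare.

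HMOX2, the constitutive haem oxygenase, had means of 255.7 in summer and 302.8 in winter, and the quinone reductase NQO1 had 182.2 and 153.4. The regulators also differed in the direction of their means. NFE2L2 stood at 451.6 in summer against 351.6 in winter (log2 ratio -0.36), and none of its 6 combinations of solutions separated the seasons. Its RefSeq span overlaps that of HNRNPA3. KEAP1 stood at 51.0 and 74.1 normalized reads in summer, against 111.7 and 68.7 in winter. Winter A alone was above both summer libraries, and the log2 fold change was 0.54 ± 0.42 (SE), with a log2 ratio of 0.14 without winter A.

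Genes next to these pathways were taken from lists of related functions. Of 99 related genes with enough counts, 66 had the lower mean in winter, against 53.8% of all symbols, and 33 the higher. More than 2-fold apart were 7, against 7.26% of all symbols. The median log2 ratio was -0.07, against -0.04 for all symbols. Of the 99 genes, 50 could be tested in recovered reads and none had an unadjusted p under 0.05 in edgeR's quasi-likelihood test. The glutathione S-transferases, which join glutathione to toxic compounds, had the lower mean in winter in 10 of 10 genes (53.8% of all symbols did), with log2 ratios from -1.25 to -0.03 and a median of -0.31. None of the 7 that could be tested passed, and in 3 of them both summer libraries were above both winter libraries. Of the 7646 symbols tested in recovered reads, 30.5% had both libraries of 1 season above both of the other. The largest difference was in MGST2, a microsomal enzyme, with 28.2 and 39.9 normalized reads in summer against 12.8 and 15.9 in winter and a log2 fold change of -1.25 ± 0.64 (SE). Other selenoproteins and the machinery that makes selenocysteine, the residue that many glutathione peroxidases and thioredoxin reductases carry, had 9 genes lower and 9 higher in winter, and SEPP1, the selenium carrier, had means of 1488.4 and 1386.5. The genes of NADPH supply had 7 lower and 5 higher, and TKT, a pentose phosphate enzyme, had 631.8 in summer and 776.1 in winter. Partners and other targets of NRF2 had 9 lower and 7 higher, and SQSTM1, which binds KEAP1, had 949.1 and 916.0. Other thiol and peroxide enzymes had 16 lower and 4 higher with a median of -0.13, and GPX6, past 2-fold, had 5 and 86 reads in summer A and B against 21 and 21 in winter, so that summer A was below and summer B above both winter libraries.

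In bulk tissue, fewer cells of a type and less RNA per cell cannot be told apart. The neurone markers of the supraoptic nucleus were present, with vasopressin (listed as a putative AVP) at a mean of 11821.7 in summer and 2559.6 in winter and oxytocin at 592.0 and 620.6. Vasopressin and PDYN, the prodynorphin gene of vasopressin neurones, were the 2 of 9 neurone markers lower in winter. PDYN was past the unadjusted rule, at a log2 fold change of -1.76 ± 0.68 (SE) with an adjusted p of 0.982 in edgeR's quasi-likelihood test. Its winter libraries were far apart, at 63.4 (A) and 8.46 (B) normalized reads, against 128.0 and 126.5 in summer. The summed mean of 8 astrocyte markers was 37953.3 in summer and 23058.8 in winter, with GFAP at 25073.6 and 14423.4, while 4 of the 8 were higher in winter. The summed mean of 8 oligodendrocyte markers was 35834.6 and 40154.6, with 7 of 8 higher in winter. Microglia and macrophage markers summed to 7022.8 and 5440.4, with 5 lower and 3 higher in winter. Endothelial and mural markers summed to 1423.7 and 1287.6, with 6 lower and 3 higher. Among these KDR, named after its values were seen, was past the same rule at -1.26 ± 0.35 (SE), with the same adjusted p. Markers of red blood cells, which are rich in peroxiredoxin 2 and catalase, summed to 405.3 and 356.9, with 3 lower and 1 higher in winter. HBB stood at 118.2 and 118.5 normalized reads in summer against 37.7 and 113.2 in winter. ALAS2, the higher one, had means of 199.3 in summer and 214.7 in winter. Markers of granulocytes and lymphocytes (86.3 and 53.8) and of ependyma and choroid plexus (97.2 and 73.5) were low. The part of these markers in the season differences of the antioxidant genes was not tested.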

How the data were processed

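RNA-seq of the supraoptic nucleus gave 4 libraries, whose labels put 2 in winter and 2 in summer. The authors aligned reads with TopHat to their own assembly, counted them with HTSeq, and deposited raw counts for 64989 gene models, with 4379162 to 6902037 reads on gene models a library. The gene models carry no symbols, so these counts served only for depth; the 5 tallies of reads outside any gene model at the end of each count file stayed out. Alignments without a unique place made up 20.2% to 26.9% of all tallied, and reads outside any gene model 46.4% to 55.2%. Summer replicate 2 had a read on 40178 gene models, and the other libraries on 49320 to 52456. The recovered libraries carry no replicate number, so this replicate was not matched to summer A or B. The study's supplement states that fragmentation or duplication in the draft assembly raises its number of predicted genes. The strand setting of the counting and the versions of the tools are not given in the sources used here. For each symbol the authors deposited a signal, the mean over each season of counts divided by DESeq size factors, and their own edgeR fold change (a ratio) and p-value, which were not used.

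Season means were compared as log2 ratios of winter over summer with a minimum of 10 in a season. Whole reads were recovered from the means (size factors from the smallest steps between values, within the rounding of the last of 6 significant digits plus 5%) and were unique in both seasons for 9888 symbols. Those with enough counts entered the quasi-likelihood test of edgeR 4.0.16 under R 4.3.3 (glmQLFit with legacy set to FALSE and the recovered size factors) and adjusted by the Benjamini-Hochberg method over 7646 symbols. The common biological coefficient of variation was 0.46. An exact permutation test of 2 against 2 libraries cannot go below p = 0.333 (two-sided) and was not used. On simulated reads for the winter against summer comparison over 7646 symbols the rule found 197 of 200 genes changed 4-fold at a coefficient of variation of 0.2 and 175 at 0.4, and passed 105 and 380 unchanged genes. After adjustment 184 and 54 of the changed genes were called. Both simulated coefficients of variation were below the 0.46 of the data, and 4-fold was more than the ratio of any member tested. These counts therefore do not give the power to find differences of the size seen in the members.

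The members and lists were chosen with earlier results of these data known. All 34 members are named, and from each related list those past 2-fold in the deposited means, at most 3, or otherwise the gene with the largest mean. Alternatives were the exact test, DESeq2 1.42.0, other scalings, filters, a pseudocount of 1, folds of 1.5 and 3, and leaving out each library. Overlaps of gene spans were read from a RefSeq table of another assembly, and no coordinates or sequences are given.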

Additional observations from a re-analysis of the deposited data

How the results depend on the processing

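With 2 libraries a season, the SE of the log2 fold change ran from 0.34 (PRDX4) to 0.93 (GPX8) over the 11 members tested. The count of 2 members more than 2-fold apart in the deposited means was 1 with a pseudocount of 1, 1 with at least 10 in both seasons, 1 with ratios centred on the median of all symbols, 5 of 33 with no minimum, 7 at 1.5-fold and 0 at 3-fold. With each library left out it was 2 to 3 among the members with a unique solution, but the genes changed. SOD1 and GPX8 were both past 2-fold only without summer A. Without summer B the log2 ratios were -0.79 for SOD1 and 0.34 for GPX8, and the members past 2-fold were GLRX (1.30) and PRDX5 (-1.36). Without winter B GPX8 was at -0.78. The 7 related genes past 2-fold became 4 with at least 10 in both seasons. In recovered reads the count of members past the rule was 0 under every other test, scaling and filter, and with every combination of solutions fitted, an alternative chosen after seeing the data. With each library left out it ran from 0 to 2. The 2 were SOD1 and GPX8, past the rule without summer A, where the lone summer library is assumed to vary like the winter ones; neither was called after adjustment, and 1240 of 8002 symbols passed the rule there. Without summer B 1076 of 7384 symbols did, and none of the members. The log2 fold change of GPX7 ran from -0.22 to 0.57 and was -0.22 without winter A, which reversed it. The median log2 ratio of the members ran from -0.24 to -0.20 over the pseudocount, the filters, the centring and the recovered-read fit. It was not computed with a library left out. Over all symbols tested, the median log2 fold change in recovered reads was -0.112 with all libraries. It was -0.2 without summer A and 0.123, in the opposite direction, without summer B. Over the 7646 symbols tested in recovered reads the number past the rule was 128, 106 by the exact test and 60 by DESeq2. The cause of these changes was not tested. No paired analysis was possible because the camels of each season were slaughtered in that season, so that the seasons share no animal.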

Other observations

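Of 16 enzymes that make reactive oxygen species with enough counts, 11 had the lower mean in winter (53.8% of all symbols did) and 5 the higher. More than 2-fold apart were 4 (7.26% of all symbols were). NOX3, an NADPH oxidase of the inner ear, held 15 and 131 reads in summer A and B and 41 and 33 in winter A and B, and HAO1, a peroxisomal glycolate oxidase of liver, held 0 and 29 in summer against 9 and 1 in winter. In both genes summer A lay below both winter libraries and summer B above them. DAO, which oxidises D-amino acids and releases hydrogen peroxide, had 55 reads in winter A and 12 in winter B, against 11 and 7 in the summer libraries, and was high in winter A. None of the 12 tested in recovered reads had an unadjusted p under 0.05 in edgeR's quasi-likelihood test.

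Of 7 genes of metal and iron handling with enough counts, 4 had the lower mean in winter (53.8% of all symbols did) and 3 the higher. The median log2 ratio was -0.19. HP, the haptoglobin gene whose protein binds free haemoglobin, had 24.9 and 39.9 normalized reads in summer A and B and 9.06 and 16.9 in winter A and B. The groups did not overlap, and the log2 fold change was -1.35 ± 0.70 (SE), with an adjusted p of 0.982 in edgeR's quasi-likelihood test.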
